A study of Mus musculus with 6 samples.

Results

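The genes described here are 10 genes whose proteins coat lipid droplets, join them or release fatty acids from them: *Cidea*, *Cideb*, *Cidec*, *Plin2*, *Plin3*, *Plin4*, *Plin5*, *G0s2*, *Pnpla2* and *Pnpla3*. They were chosen by symbol, with earlier results of these data known, and are 10 of 18418 genes with any expected count in the liver RNA-seq files. The livers came from 6 *Mettl14*f/f males on a C57BL/6J background, all fed a high-fat diet (HFD) from 8 weeks of age for 10 weeks before a tail-vein injection of vector and taken 8 weeks after it. In 3 mice the vector was AAV8-TBG-GFP (genotype WT in the labels) and in 3 mice it was AAV8-TBG-Cre (METTL14 KO in the labels). Both groups therefore carried the floxed alleles, the diet and an AAV8 vector, and differed in whether the vector expressed Cre or GFP. They are called GFP livers and Cre livers below, with the replicate number of the label. The TBG promoter is active in hepatocytes, so the other cells of the liver should keep *Mettl14*, which encodes the structural subunit of the RNA m6A methyltransferase.

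A lipid droplet is a core of triacylglycerol and sterol ester inside a single layer of phospholipid. Perilipins sit on that layer and limit the access of lipases, CIDE proteins gather where droplets touch and move lipid from the smaller to the larger droplet, and adipose triglyceride lipase (ATGL, encoded by *Pnpla2*) takes the first fatty acid off triacylglycerol. In the fatty liver of obese mice, genes better known from adipose tissue, among them *Cidea*, *Cidec* and *Plin4*, are expressed by hepatocytes.

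The libraries held between 20356392 and 21010474 expected counts, of which the 10 top genes held between 15.8% and 17.7%. TMM scaling factors lay between 0.913 and 1.02 in 5 libraries and were 1.18 in Cre liver 2, whose levels in CPM (counts scaled by library size) are lowered by that factor. *Mettl14* itself was at 6.30, 6.43 and 5.81 CPM in the GFP livers and at 4.96, 5.38 and 4.86 CPM in the Cre livers, with log2FC (log2 of the fold change, Cre over GFP) at -0.29 (SE 0.15, adjusted p = 0.336 in edgeR's quasi-likelihood test), so the targeted gene did not pass the test and the groups are called by their labels. Its counts cover the whole transcript and cannot tell an intact from a recombined *Mettl14* mRNA. The paper reports less METTL14 protein and less total liver m6A in males given these vectors on the same diet, at an earlier time after injection. Markers of hepatocytes summed to between 109574 and 129737 CPM in the GFP livers and between 122096 and 128740 CPM in the Cre livers, led by *Alb*. Sums of markers, here and below, were taken over the total counts of a library without the TMM factor. Unlike the levels of single genes, they are therefore not lowered by 1.18 in Cre liver 2. In the TMM-scaled fit, 5 of the 10 hepatocyte markers had a log2FC below 0, with a median of 0.05. Markers of other liver cells moved with the group, and their values stand beside the results that follow. These are bulk samples, in which fewer cells of a type and less RNA per cell cannot be told apart. The edgeR p-values set a difference against the spread between 3 mice per group, which was estimated in part from all genes.

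In the Cre livers, *Cidea*, *Plin4* and *G0s2* fell, by 20.3-fold, 3.34-fold and 2.08-fold, and 0 of the 10 genes rose. A gene was called at the threshold of the study, an unadjusted p-value under 0.05 with a fold change of at least 1.2, in edgeR's quasi-likelihood test over 13430 genes with enough counts. All 10 genes had enough counts, although *Cidea* passed that filter through its libraries of the GFP livers. The 3 called genes of 10 stand against 20.5% of all genes tested that were called, 8.41% lower and 12.0% higher. With a Benjamini-Hochberg adjusted p-value under 0.05 the count was 1 of 10 (*Cidea*), against 0.931% of all genes, 0.447% lower and 0.484% higher. Of the 10 genes, 9 had a log2 fold change below 0, as 51.0% of all genes did, and their median was -0.47 beside -0.01 over all genes. Every Cre library lay below every GFP library for 3 of the 10 genes, against 13.0% of all genes tested, and these were the called ones.

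**Figure D1:**
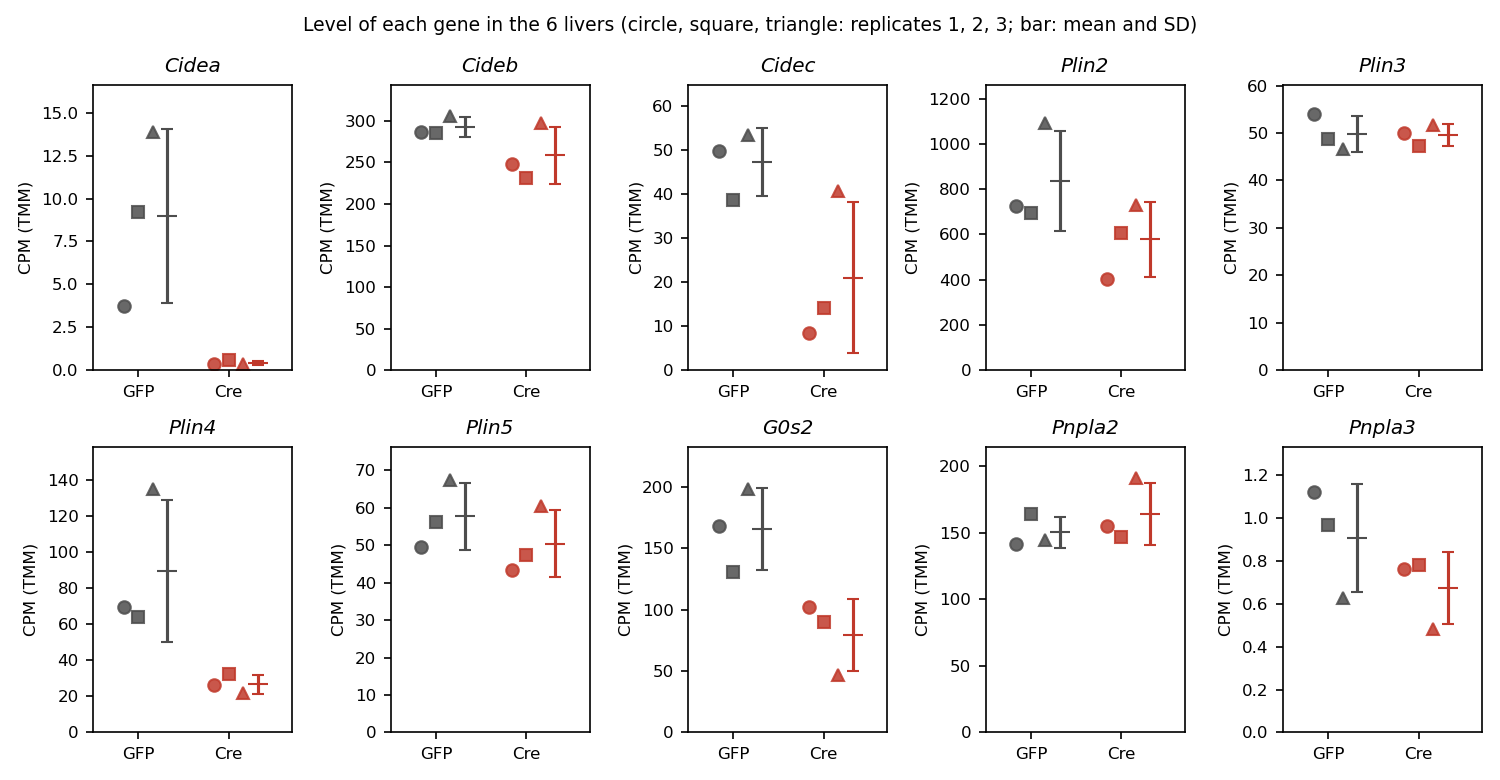
Level of each of the 10 genes in CPM after TMM scaling (linear axes from 0) in the 3 AAV8-TBG-GFP (grey) and the 3 AAV8-TBG-Cre (red) livers, with one marker shape per replicate number and a bar for the mean and SD. The groups are apart for *Cidea*, *Plin4* and *G0s2*, and overlap for the other 7 genes.

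Among the CIDE genes, *Cidea* fell and was low in every liver of the Cre group, whereas *Cideb* did not pass the test and *Cidec* was low in 2 of the 3 livers. *Cidea* (chromosome 18, 67343564 to 67367794 in GRCm38.p6) encodes a droplet fusion protein first known from brown fat. Its level was 3.76, 9.23 and 13.9 CPM in GFP livers 1, 2 and 3 and 0.382, 0.575 and 0.337 CPM in Cre livers 1, 2 and 3. The GFP livers themselves spread widely (8.97 ± 5.09 CPM, SD, n = 3), and even the lowest of them was far above the Cre livers (0.431 ± 0.127 CPM, SD, n = 3). Its log2FC was -4.34 (SE 0.54, 95% interval -5.61 to -3.08, adjusted p = 0.0330 in edgeR). In p-value *Cidea* ranked at place 18 of all genes tested.

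The counts behind these levels were small in the Cre livers. They were 8, 14 and 7 fragments, with exact Poisson 95% intervals of 3.45 to 15.8, 7.65 to 23.5 and 2.81 to 14.4, against 74, 181 and 266 fragments in the GFP livers. The intervals cover counting error only and do not meet those of the GFP livers, of which the lowest ran from 58.1 to 92.9. The adjusted p-value of *Cidea* rose above 0.05 when GFP liver 2 (0.119), GFP liver 3 (0.0586), Cre liver 2 (0.0778) or Cre liver 3 (0.0871) was left out of the edgeR fit, while the log2FC stayed between -4.72 and -3.89. On the scale of log2(FPKM + 1) it was -2.43, since the pseudocount exceeds the level in the Cre livers.

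*Cidec* (chromosome 6, 113424634 to 113435760), also called Fsp27, makes large droplets in white fat and in steatotic hepatocytes. Its level was 49.7, 38.7 and 53.3 CPM in the GFP livers and 8.35, 14.1 and 40.6 CPM in the Cre livers. Cre livers 1 and 2 were below all GFP livers, and Cre liver 3 lay inside their range, so the groups overlapped. The log2FC was -1.17 (SE 0.51, 95% interval -2.35 to 0.01, unadjusted p = 0.0508, adjusted p = 0.241 in edgeR). The coefficient of variation was 16.1% in the GFP livers and 81.8% in the Cre livers. Without Cre liver 3 the log2FC was -2.07 with an unadjusted p of 0.000146 and an adjusted p of 0.0682 in edgeR. *Cidec* has 2 transcripts in the files, and the more abundant one held between 75.3% and 100% of its counts with no separation of the groups (88.9% ± 12.5 against 96.3% ± 6.41, SD, n = 3 each, exact two-sided permutation test, p = 0.7). Single libraries decided the size of that difference, which was 7.42 percentage points with all livers, 0.636 without GFP liver 2 and 13.0 without GFP liver 3.

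*Cideb* (chromosome 14, 55754052 to 55758424), the CIDE gene of normal hepatocytes, serves the lipidation of very-low-density lipoprotein. It was at 287, 285 and 306 CPM in the GFP livers and 248, 231 and 297 CPM in the Cre livers. The log2FC was -0.18 (SE 0.13, 95% interval -0.49 to 0.14, adjusted p = 0.506 in edgeR), and Cre liver 3 lay within the range of the controls.

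Because levels of different genes can be compared only per length, the makeup of each family was taken from the deposited FPKM. *Cideb* held 87.6% ± 1.65 (SD, n = 3) of the summed FPKM of the CIDE genes in the GFP livers and 94.9% ± 3.23 (SD, n = 3) in the Cre livers. The share of *Cidea* was 1.18%, 2.94% and 3.98% in the GFP livers and 0.153%, 0.243% and 0.106% in the Cre livers. For *Cidea* and *Cideb* the groups did not overlap, and the exact two-sided permutation test gave p = 0.1, the smallest that 3 mice against 3 allow. The share of *Cidec* was 9.71% ± 1.23 against 4.96% ± 3.27 (SD, n = 3 each, exact permutation test, p = 0.2). The summed FPKM itself was 268 ± 8.77 against 246 ± 26.6 (SD, n = 3 each, exact permutation test, p = 0.3).

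**Figure D2:**
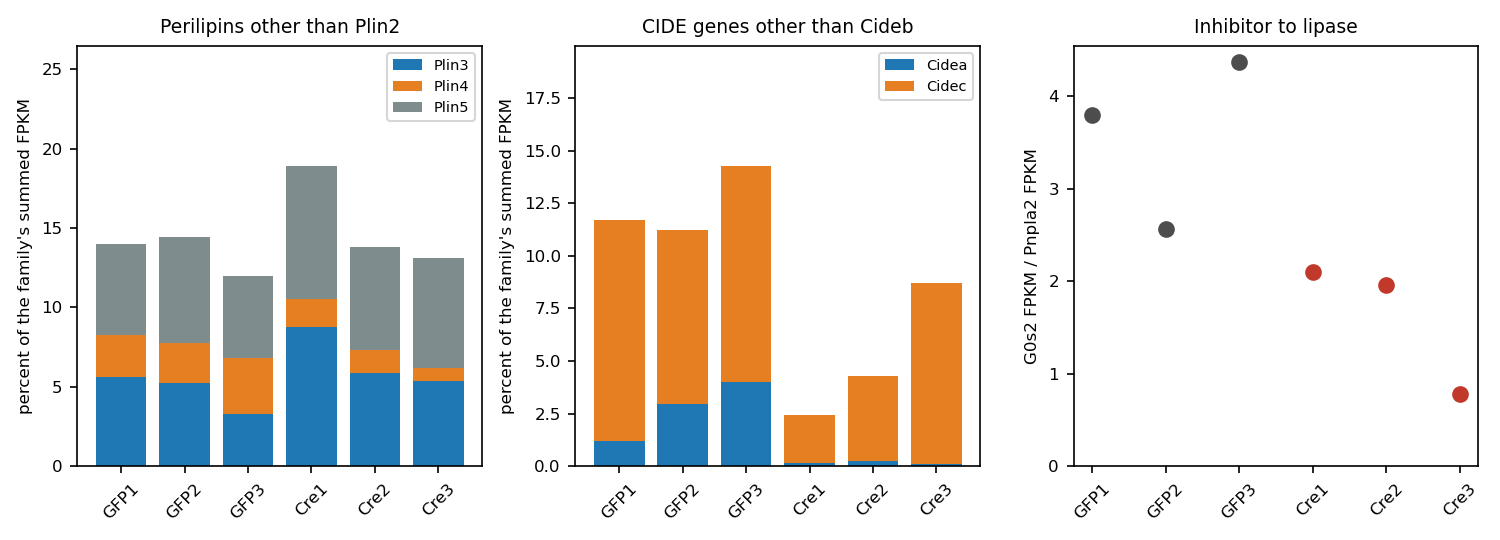
Share of *Plin3*, *Plin4* and *Plin5* in the summed FPKM of the perilipins (left, percent, *Plin2* makes up the rest), share of *Cidea* and *Cidec* in the summed FPKM of the CIDE genes (middle, percent, *Cideb* makes up the rest) and the ratio of *G0s2* to *Pnpla2* FPKM (right, linear axis from 0) in each liver. The share of *Plin4* is between 2.54% and 3.52% in the GFP livers and between 0.841% and 1.73% in the Cre livers.

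Among the perilipins, *Plin4* fell, *Plin2* was lower without passing the test, and the values of *Plin3* and *Plin5* differed by less than the spread between mice. *Plin4* and *Plin5* are neighbours on the minus strand of chromosome 17, *Plin4* at 56100587 to 56109948 and *Plin5* at 56111597 to 56117606 in GRCm38.p6, with 1648 bases between them, and *Plin3* follows 161355 bases further on (56278962 to 56290511). Stretches of 30 bases just before a start site of each are shown because one of these neighbours passed the test and the other did not, while both hold the same hexamer there. They are from RefSeq (GRCm38.p6, minus strand, written 5′ to 3′ on the strand of the gene), Plin4 at chr17:56109797-56109826 and Plin5 at chr17:56117558-56117587. Capitals mark the TATA-like hexamer TATAAG.
Plin4: ctccccagacccTATAAGgcttggggattg
Plin5: acccagacctgcTATAAGgacggagggctg

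The hexamer begins 32 bases before a start site of *Plin4* at 56109782 and 27 bases before a start site of *Plin5* at 56117548. These are internal start sites, 166 and 58 bases inside the outer 5′ ends of the gene spans given above, so the stretches shown lie within those spans. TATAAG was searched on both strands of the 300-base windows (250 bases before to 50 after a start) and occurs in 7.43% of 32851 promoter windows. It was chosen after the sequences were seen. Of the 10 genes, 9 had a promoter in the table, with 11 windows, and no other of these windows held TATAAG. The E-box CACGTG, found in 7.15% of windows, occurred at -4 in *Plin2*. A direct repeat of nuclear receptor half-sites (DR1, 2 copies of AGGTCA with 1 base of any kind between them and up to 2 mismatches, in 3.86% of windows) also occurred once in *Plin2*, as GGACCCCTGACCT from -225, with 2 mismatches on the minus strand. TATAAA, in 13.6% of windows, occurred at -172 in *Cideb*. The start site used for *Plin2* also lies inside its gene span, by 158 bases. These are matches of letters, and no binding was measured.

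*Plin4*, also known as S3-12, encodes a perilipin that coats small new droplets in adipocytes. Its level was 69.5, 63.9 and 135 CPM in GFP livers 1, 2 and 3 and 26.4, 32.2 and 21.8 CPM in Cre livers 1, 2 and 3. The highest Cre liver had less than the lowest GFP liver, and GFP liver 3 stood above all others. The log2FC was -1.74 (SE 0.30, 95% interval -2.44 to -1.04, unadjusted p = 0.000506, adjusted p = 0.0509 in edgeR). It was -1.32 without GFP liver 3, and the call at the unadjusted threshold held in all 17 alternatives, with log2FCs between -1.93 and -1.32 and adjusted p-values between 2.31e-06 in DESeq2 and 0.184 in limma on log2(FPKM + 1) without a filter.

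*Plin5*, whose protein links droplets to mitochondria in oxidative tissues, was at 49.6, 56.2 and 67.3 CPM in the GFP livers and 43.5, 47.4 and 60.4 CPM in the Cre livers. The groups overlapped, with a log2FC of -0.19 (SE 0.16, 95% interval -0.57 to 0.18, adjusted p = 0.544 in edgeR). Its 95% interval and that of *Plin4* did not meet. The difference between these neighbours can be read within each liver from the log2 ratio of *Plin4* to *Plin5* FPKM, a measure added after the values were seen. That ratio was -1.10, -1.39 and -0.56 in the GFP livers and -2.29, -2.12 and -3.04 in the Cre livers, a difference of -1.47 with no overlap (exact two-sided permutation test, p = 0.1). The more abundant of 2 *Plin5* transcripts held 92.0%, 60.7% and 55.9% of its counts in the GFP livers and 59.2%, 41.4% and 55.9% in the Cre livers (69.6% ± 19.6 against 52.2% ± 9.44, SD, n = 3 each, exact permutation test, p = 0.2). GFP liver 1 stood apart, and the difference of -17.4 percentage points was -6.18 without it.

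*Plin2* (chromosome 4, 86626910 to 86670217), the main droplet coat of hepatocytes, was at 724, 696 and 1092 CPM in the GFP livers and 402, 606 and 730 CPM in the Cre livers. Cre liver 3 lay just above the 2 lower controls, so the groups overlapped. The log2FC was -0.53 (SE 0.27, 95% interval -1.16 to 0.09, unadjusted p = 0.0854, adjusted p = 0.309 in edgeR). The library names have a short form (GFP livers 1 and 2, Cre liver 1) and a long form (the other 3), which the labels do not explain. Among the short names *Plin2* had a log2 ratio of -0.82 between the vectors and among the long names -0.71. With the name form as a covariate, log2FC became -0.76 with an unadjusted p of 0.00122 (adjusted p = 0.0575 in edgeR). The ratios of the called genes were below 0 within both forms, -4.09 and -4.93 for *Cidea*, -1.34 and -2.32 for *Plin4* and -0.55 and -1.53 for *G0s2*, and those of *Cidec* were -2.40 and -0.96, for short and long names in turn.

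*Plin3*, a coat protein of nearly all cells that moves between cytosol and droplet, was the steadiest of the 10 genes, with 54.1, 48.8 and 46.6 CPM against 50.0, 47.2 and 51.7 CPM. Its log2FC was -0.01 (SE 0.10, 95% interval -0.24 to 0.23, adjusted p = 0.982 in edgeR), and the sign turned with the scaling. The highest library exceeded the lowest by 1.16-fold, followed by 1.32-fold for *Cideb*, 1.35-fold for *Pnpla2* and 1.55-fold for *Plin5*. It was 2.33-fold for *Pnpla3*, 2.72-fold for *Plin2*, 4.25-fold for *G0s2*, 6.19-fold for *Plin4*, 6.38-fold for *Cidec* and 41.2-fold for *Cidea*.

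In FPKM, *Plin2* made up 86.5% ± 1.29 of the 4 perilipins in the GFP livers and 84.7% ± 3.18 in the Cre livers (SD, n = 3 each, exact two-sided permutation test, p = 0.6), and the difference of -1.81 percentage points became 0.0146 without Cre liver 1. *Plin4* held 2.67%, 2.54% and 3.52% in the GFP livers and 1.73%, 1.48% and 0.841% in the Cre livers (2.91% ± 0.533 against 1.35% ± 0.457, SD, n = 3 each, exact permutation test, p = 0.1), with no overlap. The shares of *Plin3* (4.70% ± 1.25 against 6.67% ± 1.85) and *Plin5* (5.85% ± 0.731 against 7.26% ± 1.03) overlapped between the groups (SD, n = 3 each, exact permutation test, p = 0.2 for each), and without Cre liver 1 their differences shrank from 1.97 to 0.912 and from 1.41 to 0.825 percentage points. The summed FPKM of the perilipins was 480 ± 104 against 382 ± 98.7 (SD, n = 3 each, exact permutation test, p = 0.6).

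Among the lipolysis genes, *G0s2* fell while *Pnpla2* and *Pnpla3* did not pass the test. *G0s2* (chromosome 1, 193272160 to 193273188) encodes a small protein that binds ATGL and blocks its activity. Its level was 168, 131 and 198 CPM in the GFP livers and 102, 89.8 and 46.6 CPM in the Cre livers. Cre liver 3 was lowest, and all 3 livers of that group were below the controls. The log2FC was -1.06 (SE 0.29, 95% interval -1.73 to -0.38, unadjusted p = 0.00705, adjusted p = 0.104 in edgeR). The call at the unadjusted threshold held in all 17 alternatives, with log2FCs between -1.28 and -0.79, and the adjusted p-value was under 0.05 in 1 of them, DESeq2 (0.00800).

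*Pnpla2* (chromosome 7, 141455188 to 141460743), the gene of ATGL, was at 142, 164 and 145 CPM in the GFP livers and 155, 147 and 191 CPM in the Cre livers. These values overlapped, with a log2FC of 0.13 (SE 0.14, 95% interval -0.19 to 0.45, adjusted p = 0.637 in edgeR). In limma on log2(FPKM + 1) the fold change was 0.29 on that scale and passed the unadjusted threshold, where the median of all genes was 0.113. Of 3 listed *Pnpla2* transcripts 2 had a fragment, and the main one held 96.1% ± 0.849 of the counts in the GFP livers and 98.1% ± 1.17 in the Cre livers (SD, n = 3 each, exact permutation test, p = 0.1), higher in all 3 Cre livers.

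The inhibitor and its enzyme were also set against each other within each liver. The ratio of *G0s2* to *Pnpla2* FPKM was 3.80, 2.56 and 4.37 in the GFP livers and 2.10, 1.96 and 0.782 in the Cre livers. All 3 control livers had the higher ratio, and in Cre liver 3 there was more *Pnpla2* than *G0s2* per length. On the log2 scale the ratio was 1.80 ± 0.40 against 0.56 ± 0.80 (SD, n = 3 each), a difference of -1.24 (exact two-sided permutation test, p = 0.1) that was -0.78 without Cre liver 3.

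*Pnpla3* (chromosome 15, 84167776 to 84189521) encodes a droplet protein related to ATGL. It was barely expressed, at 1.12, 0.969 and 0.628 CPM against 0.764, 0.780 and 0.481 CPM, from 22, 19 and 12 against 16, 19 and 10 fragments. The ranges overlapped and the 95% interval of the log2FC (-0.42, SE 0.37, adjusted p = 0.571 in edgeR) ran from -1.28 to 0.45, and a difference of this size was not detectable in these 6 libraries.

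**Figure D3:**
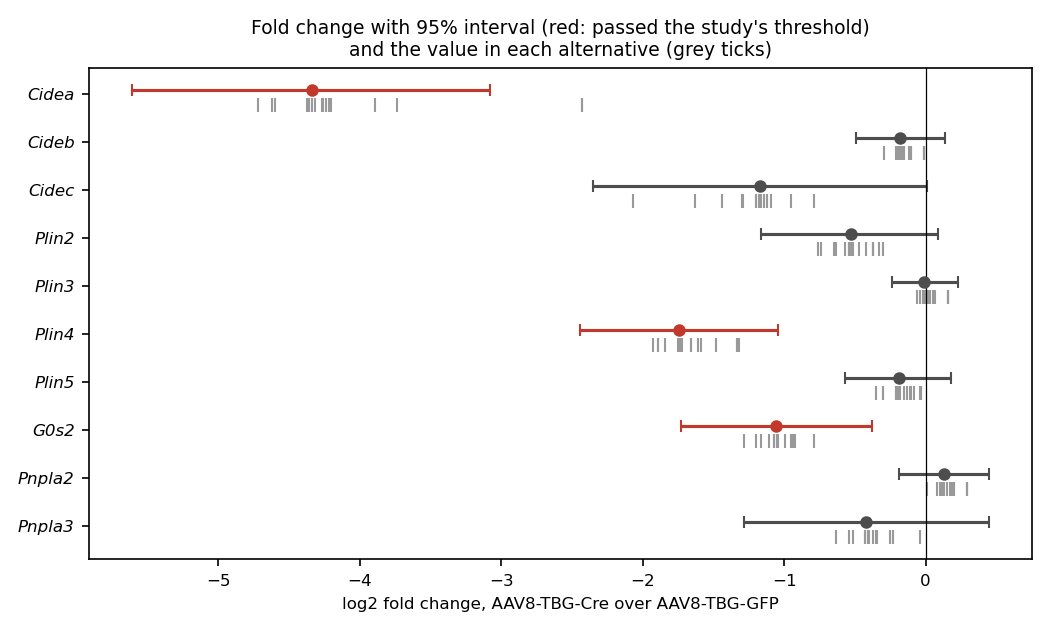
Log2 fold change of AAV8-TBG-Cre over AAV8-TBG-GFP (horizontal axis) for each gene in edgeR, with its 95% interval as a bar, red where the gene passed the unadjusted threshold. Grey ticks give the value in each alternative, which for *Cidea* run from -4.72 to -2.43 and for *Plin3* from -0.06 to 0.16.

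Ordered by FPKM, *Plin2* led in the GFP livers at 416 ± 97.2, followed by *Cideb* at 235 ± 3.85, *G0s2* at 188 ± 34.7, *Pnpla2* at 53.4 ± 4.59, *Plin5* at 27.7 ± 3.34, *Cidec* at 26.1 ± 3.96, *Plin3* at 21.7 ± 2.28, *Plin4* at 14.4 ± 5.90, *Cidea* at 7.28 ± 3.96 and *Pnpla3* at 0.183 ± 0.0569 (SD, n = 3). The ranges of neighbours in this order overlapped from *Plin5* down to *Cidea* and were apart elsewhere. In the Cre livers the first 5 places were the same, from *Plin2* at 326 ± 93.9 to *Plin5* at 27.1 ± 4.03, with *Cideb* at 233 ± 17.2, *G0s2* at 103 ± 41.0 and *Pnpla2* at 65.4 ± 5.81. *G0s2* and *Pnpla2*, apart in the controls, overlapped there, as did *Plin2* and *Cideb*. *Plin3* at 24.3 ± 1.2 came before *Cidec* at 12.8 ± 9.65, and *Plin4* at 4.94 ± 1.43, *Cidea* at 0.407 ± 0.161 and *Pnpla3* at 0.150 ± 0.0458 (SD, n = 3) closed the order without overlap among them. The ranges of *Plin5*, *Plin3*, *Cidec* and *Plin4* overlapped from each to the next.

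The genes whose level ran most like that of *Cidea* and *Plin2* over the 6 libraries were listed by Pearson's r of log2 CPM among 10802 genes, as a description in which the libraries share their group and depth. For *Cidea* they were *Mgmt* (r = 0.993), *Fbxw8* (0.993), *Cfd* (0.991), *Rn7s2* (0.989) and *Rn7s1* (0.989), the last 2 being near-identical copies with the same values. *Cfd*, the gene of adipsin, had 9.25, 20.5 and 24.7 CPM in the GFP livers and 0.764, 0.616 and 0.626 CPM in the Cre livers (log2FC -4.75, adjusted p = 0.0149 in edgeR). For *Plin2* they were *E330011O21Rik* (r = 0.996), *Acot8* (0.994), *Acsl1* (0.994), *Atp6v1c1* (0.994) and *Chd3* (0.990). *Acsl1*, a long-chain acyl-CoA synthetase, had 1819, 1914 and 2689 CPM against 1119, 1622 and 1849 CPM, with the lowest and the highest liver the same as for *Plin2*.

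Other genes of the pathway were taken from 3 lists, read beside the share of all genes called (8.41% lower, 12.0% higher). Of 20 other lipid droplet genes 18 were tested, and 5 were called lower and 2 higher, with a median log2FC of -0.10 that turned to 0.06 in limma on log2(FPKM + 1). *Fitm1*, which helps triacylglycerol enter new droplets at the endoplasmic reticulum, fell from 76.8 ± 7.67 to 23.2 ± 7.09 CPM (SD, n = 3 each, log2FC -1.73, adjusted p = 0.0330 in edgeR), with 68.9, 84.2 and 77.4 CPM against 16.3, 30.5 and 22.7 CPM. Its relative *Fitm2* fell by 0.52 on the log2 scale, the seipin gene *Bscl2*, which acts in droplet formation, by 0.50, *Ldah* by 0.27 and *Ethe1*, a mitochondrial sulfur dioxygenase, by 0.50. *Tmem159*, a partner of seipin, rose by 0.85, from 1.32 ± 0.354 to 2.39 ± 0.528 CPM (SD, n = 3 each), and *Cav1*, the caveolin gene, rose by 0.64. Apart from *Fitm1*, the called genes of this list had adjusted p-values above 0.05 in edgeR, from 0.0748 for *Bscl2* to 0.222 for *Cav1*. The genes of highest FPKM that were not called, *Mettl7b*, *Hsd17b13* and *Hsd17b11*, had log2FCs of 0.03, 0.04 and 0.22. *Plin1*, the perilipin of adipocytes, had between 2 and 8 fragments per liver and was not tested.

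Of 22 other lipases and cofactors 21 were tested, and 7 were called lower and 1 higher, with a median of -0.34. Lipoprotein lipase, *Lpl*, rose from 16.9, 12.7 and 26.3 CPM to 81.8, 181 and 90.3 CPM (log2FC 2.66, adjusted p = 0.0362 in edgeR), opposite in direction to the called genes of the 10. The carboxylesterases *Ces1f* (-1.35, adjusted p = 0.0396 in edgeR) and *Ces1d* (-1.02), which hydrolyse triacylglycerol in hepatocytes, and *Abhd6* (-0.74, adjusted p = 0.0330 in edgeR), a monoacylglycerol hydrolase, fell on the log2 scale. So did *Pnpla1* (-0.53), *Daglb* (-0.50), *Ddhd2* (-0.48) and *Ces2a* (-0.48). The adjusted p-values of these and of *Ces1d* were above 0.05 in edgeR, from 0.132 for *Pnpla1* to 0.216 for *Ces2a*. *Abhd5*, the activator of ATGL, had a log2FC of -0.20 (adjusted p = 0.306 in edgeR), and for hormone-sensitive lipase, *Lipe*, it was -0.51 (adjusted p = 0.335 in edgeR). The uncalled genes of highest FPKM, *Ces3a*, *Aadac* and *Ces3b*, had -0.14, -0.37 and -0.01.

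All 17 transcription factors listed for control of lipid droplet genes were tested, and 5 were called lower and 0 higher, with a median of -0.18. *Ppara*, the receptor for fatty acids that drives their oxidation, fell from 598 ± 22.4 to 418 ± 40.8 CPM (SD, n = 3 each, log2FC -0.52), and *Pparg*, known for driving *Cidea*, *Cidec* and *Plin4* in fat and fatty liver, fell by 0.44 on the log2 scale, from 21.0, 22.8 and 21.8 to 15.9, 17.5 and 15.0 CPM. *Mlxipl* (ChREBP) fell by 0.61, the bile acid receptor gene *Nr1h4* by 0.48 and *Cebpb* by 0.65. *Cebpa*, *Creb3l3* and *Hnf4a*, the uncalled factors of highest FPKM, had log2FCs of 0.16, -0.23 and 0.07. All 5 adjusted p-values of the called factors were above 0.05 in edgeR. Every called gene of these 3 lists kept its sign under the 6 scalings compared, but 7 were not called in all of them. *Ldah* and *Ces2a* were called in 2, *Pparg* and *Ddhd2* in 3, *Ethe1* and *Pnpla1* in 4 and *Cav1* in 5.

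**Figure D4:**
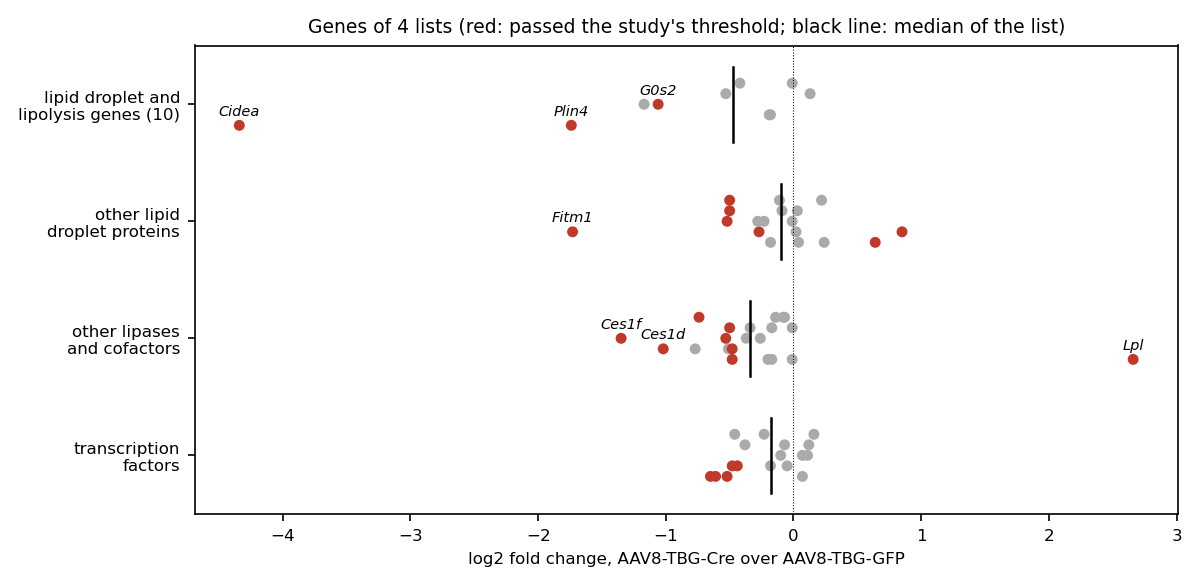
Log2 fold change of AAV8-TBG-Cre over AAV8-TBG-GFP (horizontal axis) for each tested gene of 4 lists, one point per gene, red where it passed the unadjusted threshold, with a black line at the median of the list. *Cidea* lies furthest below 0 and *Lpl* furthest above it among the genes drawn.

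Markers of other cells were read beside these results. The 15 adipocyte markers include *Cidea* and *Cidec*, so this list is not independent of the genes described here. Of the 15, 10 were tested, with *Lpl* called higher and *Cfd*, *Cidea* and *Adrb3* lower. A log2FC below 0 was found for 6 of these 10 (median -0.45). The list summed to between 131 and 152 CPM in the GFP livers and between 152 and 274 CPM in the Cre livers. *Lpl* alone rose from 16.9, 12.7 and 26.3 CPM to 81.8, 181 and 90.3 CPM, so the sum does not show the course of the other markers. The adipocyte markers ranged widely in fragments per liver. *Adipoq* had between 4 and 14, *Retn* between 1 and 4, *Plin1* between 2 and 8, *Lep* between 6 and 21, *Tusc5* between 4 and 16 and *Dio2* 0 or 1, whereas *Lipe* had between 409 and 846, *Adrb3* between 165 and 283, *Fabp4* between 136 and 251 and *Slc2a4* between 7 and 151. The marker of highest mean CPM over all 6 livers, not scaled to length, was *Lpl* for adipocytes, *Spp1* for cholangiocytes, *Lyz2* for macrophages, *Dcn* for stellate cells, *Stab2* for endothelial cells and *Csf3r* for neutrophils. Within one group it could be another, *Cidec* for adipocytes (47.2 CPM, with *Lpl* at 18.6), *Cd5l* for macrophages and *Ly6g* for neutrophils in the GFP livers, and *Col3a1* for stellate cells in the Cre livers. The counts that follow stand beside 12.0% of all genes called higher and 8.41% lower. Cholangiocyte markers were higher in 9 of 9 cases (median 2.39, sum 70.0 to 126 against 309 to 692 CPM) and macrophage markers in 7 of 10 (median 0.64, sum 232 to 284 against 394 to 722 CPM). Stellate cell markers were higher in 4 of 10 (median 0.35, sum 211 to 340 against 437 to 1061 CPM), namely *Pdgfrb*, *Col1a1*, *Col3a1* and *Lum*. *Lrat* (-0.25), *Reln* (-0.10) and *Acta2* (-0.37) had log2FCs below 0, and *Des*, *Dcn* and *Hgf* were not called. Endothelial markers had 1 of 10 lower (median -0.31, sum 152 to 260 against 169 to 227 CPM), and neutrophil markers had 3 of 5 tested higher and 1 lower (median 0.97, sum 14.6 to 15.4 against 20.2 to 26.2 CPM). Of the T and NK cell markers 2 were tested and 1 was higher, and of the B cell markers 1 was tested and it was higher. *Ucp1*, *Trac* and *Ighm* had no value and were not analysed here. The part of these cells in the levels of *Cidea*, *Plin4*, *G0s2* and *Lpl* was not tested, nor was it for the other genes of the pathway lists. When the libraries were scaled to the summed hepatocyte markers, an alternative added after the data were seen, the log2FCs were -4.22 for *Cidea* (adjusted p = 0.0101 in edgeR), -1.59 for *Plin4* (0.0288) and -0.94 for *G0s2* (0.125).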

How the data were processed

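RNA-seq was measured in 6 livers, 3 per vector, and each was assigned to its vector by the title of the sample. For each liver the authors deposited, per transcript, an expected count, an estimate of fragments that need not be whole, and an FPKM value, together with a table of FPKM per gene for the series. The processing notes of the submitters name HISAT2, Bowtie2, RSEM and the mm10 build, whereas STAR, HTSeq and DESeq2 are given in the methods of the paper, and versions and strandedness are not given in the sources used here. An estimated count divides fragments shared by similar transcripts, and *Cideb*, *Plin3* and *Pnpla3* had counts that were not whole. Single transcripts of *Cidec*, *Plin5* and *Pnpla2* also had such counts in at least some livers, so their transcript shares rest on these estimates.

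The transcripts of a gene were joined through the NCBI gene ID, their expected counts added up and rounded, and a row without a gene (0.000208% of the counts) was left out. As a check for a library deposited more than once, counts were compared between livers of a group, and with a chi-square per gene of at least 24.9 none was treated as a duplicate. Genes were tested in edgeR 4.0.16 under R 4.3.3 (TMM, filterByExpr, quasi-likelihood, vector as the only factor, Benjamini-Hochberg adjustment over 13430 genes). A gene was called at the study's threshold, which asks for a fold of 1.2 or more and a p-value, before adjustment, under 0.05. The SE of a log2FC came from the quasi-F statistic. Shares and ratios were taken from FPKM per gene, which carries no TMM scaling, and compared by exact two-sided permutation tests, whose smallest p is 0.1. The fits across all genes in edgeR, DESeq2 and limma were tested on simulated data, and the shares, ratios and promoter search were not.

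The log2FCs and the counts of calls were also computed in alternatives. These were DESeq2 1.42.0, RLE or upper quartile scaling, no filter, and 10 counts or more required of all libraries. Others blocked on the replicate number, adjusted for the library name form, or left out each library in turn. In limma 3.58.1, log2(FPKM + 1) was used with a filter (FPKM of at least 0.5 in 3 libraries) and without, and log2(FPKM + 0.1) with it. Counts of calls were also taken at a fold of 1.5. The shares and ratios were recomputed only from FPKM per transcript and with each library left out. The likeness and promoter results had no alternative. Positions and promoters are those of RefSeq on GRCm38.p6, the primary build of mm10. The text names the 10 genes, *Mettl14*, and the called genes and up to 3 others of highest FPKM in each pathway list. It also names the 5 genes most like *Cidea* and *Plin2*, and for marker lists the gene of highest mean CPM and the markers at 0. Further adipocyte and stellate cell markers, and those highest within one group, were chosen after their values were seen. *Abhd5*, *Lipe* and *Plin1* were also named after their values were seen, and *Rnf213* was not analysed here. The genes and lists were chosen with earlier results of these data known.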

Additional observations from a re-analysis of the deposited data

How the results depend on the processing

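*Cidea* (16 alternatives, none with at least 10 counts in every library, which it did not reach), *Plin4* and *G0s2* (17 each) kept their direction and their call at the unadjusted threshold in every alternative run. The shares and ratios had fewer alternatives, namely FPKM taken per transcript and each library left out. In these they kept their direction, except that the share of *Plin2* among the perilipins turned from -1.81 to 0.0146 percentage points without Cre liver 1. *Cideb* and *Pnpla3* were below 0 and uncalled in every alternative run, with no value for *Pnpla3* in limma with a filter. The adjusted p-value was less stable than the unadjusted call, and 3 mice per group limit all of these values. The scaling to hepatocyte markers, the counts at an adjusted p-value and the ratio of *Plin4* to *Plin5* were added after seeing the data. Over the alternatives other than the fold of 1.5, 3 to 5 of the other lipid droplet genes, 3 to 9 of the other lipases and 4 to 7 of the transcription factors were called lower, and 0 to 3, 1 and 0 to 1 higher. The median log2FC of the other lipid droplet genes turned above 0 in the limma fits (0.06, 0.06 and 0.05). The causes of the differences below were not tested.

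*Cidec* was called with a log2FC of -1.18 without a filter on low counts, -1.63 with the name form as a covariate, -1.20, -1.29 and -1.20 in limma on log2(FPKM + 1), log2(FPKM + 0.1) and log2(FPKM + 1) without a filter, and -1.12 when scaled to the hepatocyte markers. Leaving out each library in turn gave -2.07 to -0.79, and *Cidec* was called only without Cre liver 3. *Plin2* was called in DESeq2 (-0.54), with the name form (-0.76) and without Cre liver 3 (-0.74), in a range of -0.74 to -0.30 over the libraries left out. *Plin5* was called with the name form (-0.30), and *Pnpla2* in the 3 limma fits (0.29 in each). *Plin3* turned above 0 with upper quartile scaling (0.06), at least 10 counts in every library (0.01), the name form (0.02), the 3 limma fits (0.16 in each) and the hepatocyte markers (0.07), and ranged from -0.06 to 0.05 over the libraries left out.

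Of the 10 genes, 6 were called with the name form, where 1421 genes were called higher and 1185 lower over all genes. In each limma fit 5 of the 10 were called, beside 1880, 1995 and 2019 higher calls over all genes in the order above, and the lower calls given below. Over the libraries left out 3 to 5 of the 10 were called. The 5 were those without Cre liver 3, where 1555 genes were called higher and 930 lower over all genes. At an adjusted p-value under 0.05 there were 3 in DESeq2, 2 without a filter, with the name form and with the hepatocyte markers, 0 with at least 10 counts in every library and 0 in limma on log2(FPKM + 1) with and without a filter. Over the libraries left out there were 0 to 2, with 0 without GFP liver 2, GFP liver 3, Cre liver 2 or Cre liver 3 and 2 without Cre liver 1.

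Over all genes, 1618 were called higher and 1130 lower, so that 41.1% of the calls were lower. Lower calls numbered 737 with upper quartile scaling (27.7%), 482 with the hepatocyte markers (23.1%), 365, 376 and 364 in the limma fits in the order above (16.3%, 15.9% and 15.3%), 407 at a fold of 1.5, and 735 to 1713 over the libraries left out, the ends being those without GFP liver 1 and without Cre liver 1. The median log2FC of all genes was -0.01, moving to 0.06 with upper quartile scaling, 0.07 with the hepatocyte markers and 0.113, 0.137 and 0.114 in the limma fits. An adjusted p-value under 0.05 was reached by 65 higher and 60 lower genes. These counts were 748 and 409 in DESeq2, 235 and 137 without a filter, 31 and 35 with upper quartile scaling, 10 and 12, 15 and 12, and 5 and 4 in the limma fits, 116 and 53 with the hepatocyte markers, 94 and 120 with the name form, and 28 and 48 with at least 10 counts in every library. Over the libraries left out they ran from 0 to 572 and from 0 to 352, with 0 in each direction without GFP liver 2 or Cre liver 2 in edgeR, where 1258 and 817 and 1106 and 792 genes passed the unadjusted threshold, and with the highest counts without Cre liver 1.

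Whether the replicate numbers of the labels pair the livers could not be decided. Deviations from the group means are tied to each other with so few livers per group, so their correlations cannot show or exclude pairing. These deviations correlated at 0.05, -0.28 and 0.23 between livers of the same number, and not every liver correlated best with its own number. With the replicate number as a block, 5 of the 10 genes were called, among them *Cidec* (-1.44) and *Plin2* (-0.54). Over all genes 1504 were then called higher and 1093 lower. Of the 10 genes 0 had an adjusted p-value under 0.05, which 1 gene higher and 6 genes lower had over all genes.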
